A study of Oryza sativa with 10 samples.

Results

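Rice seeds (Oryza sativa) collected without husk at 72 hours after fertilization (HAF) were compared with seeds collected at 48 HAF. The comparison used every library of the series, chosen by the time in its label: 5 of the 10 libraries were labelled 72 HAF and 5 were labelled 48 HAF. Each time held 1 library of each of 5 genotypes, and the libraries were paired by genotype. The genotypes were wild type (WT), OE78-8, a line labelled as overexpressing MADS78 (here OE78), OE79-3, a line labelled as overexpressing MADS79 (here OE79), a CRISPR line of MADS78 labelled Cr78_8.22.2 (here CR78) and a CRISPR line of MADS79 labelled Cr79_11.25.3 (here CR79). MADS78 and MADS79 encode type I MADS-box transcription factors, whose role in the early seed was the subject of the study. Each manipulation was represented by 1 line, and neither the promoter of the overexpression lines nor the edits of the CRISPR lines are given in the sources used here. The question addressed here is which genes followed the same course in all 5 genotypes.

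After fertilization the rice endosperm first divides its nuclei without forming walls, then becomes cellular, and later fills with starch and storage protein. The embryo develops beside it, and the surrounding maternal tissues (nucellus, seed coat and a green pericarp) grow at the same time and supply the sugar. A seed without husk contains all of these tissues. Normalised read counts therefore follow both the share of each tissue and the RNA made per cell, and fewer cells of a type and less RNA per cell cannot be told apart in these bulk samples.

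Library totals ran from 12267337 to 18040600 reads assigned to genes, and 29352 to 31278 of 55801 features were detected. Expression is given as CPM, the reads of a gene scaled to a common, TMM-adjusted library size, and where 5 values follow each other they are those of WT, OE78, OE79, CR78 and CR79. Fold changes are those of edgeR's quasi-likelihood fit of 1 time effect over the 5 pairs, positive where 72 HAF was higher. SE is an approximate standard error of the log2 fold change, taken as its size divided by the square root of the test's F statistic. Adjusted p-values are Benjamini-Hochberg over the 25354 genes tested, and a gene was called where its adjusted p was under 0.05. Genes rose or fell in the text only where they were called, and the sizes of rises and falls are on the log2 scale. With a single library for each genotype and time, the p-values measure only the spread between these libraries.

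Some libraries stood apart. MADS78 (LOC_Os09g02830) had 2116 reads in OE78 at 72 HAF and at most 6 reads in each of the other 9 libraries, so its raised level was seen at 1 time of 1 line and the gene, with reads in too few libraries, was not tested for a time effect. MADS79 (LOC_Os01g74440) was at 1.94, 1.26, 2.27, 2.26 and 2.09 CPM at 48 HAF and 1.11, 0, 0.465, 0.203 and 0 CPM at 72 HAF. It fell by 2.74 on the log2 scale (edgeR adjusted p = 0.0205, SE 0.695), and without the CR78 pair its adjusted p was 0.0698. MADS79 in OE79 was below WT at 72 HAF, so the overexpression label of OE79 was not seen in its own gene at that time. Neither overexpression label can be read from the 48 HAF libraries, where MADS79 stood at 2.27 CPM in OE79 and 1.94 CPM in WT, and MADS78 at 0.343 CPM in OE78 and 0.176 CPM in WT. The summed level of 11 heat shock genes was 770 CPM in CR78 at 48 HAF and 103 to 301 CPM in the other libraries. The 50 most abundant genes took 15.1% of the reads in CR79 at 72 HAF, against 6.8% to 9.28% elsewhere. One feature singled out after its values were seen, LOC_Os09g01000, alone took 4.97% of the reads there.

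As a check of the labelled tissue, the ovule and seed MADS genes MADS13, MADS21 and MADS29 were present in every library, at 293 to 472, 319 to 515 and 112 to 157 CPM. Of 8 anther and tapetum genes 4 had too few reads to be tested. The other 4 were tested, among them MSP1 at 46.1 to 91.2 CPM and GAMYB at 27.2 to 48.6 CPM. The summed level of the list was 111 to 146 CPM at 48 HAF and 80.7 to 99.2 CPM at 72 HAF, so these genes were not silent in the seeds. The endosperm regulator NF-YB1 had 1 read over the 5 libraries of 48 HAF, while RSR1, another regulator of starch genes, stood at 13.7 CPM or more in each of them.

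Time was the main axis of the data. Of 25354 genes tested, 7114 (28.1%) were called between 48 and 72 HAF, 3843 higher (15.2%) and 3271 lower (12.9%) at 72 HAF. A change of at least 2-fold was called for 2765 genes (10.9%), 1573 upward and 1192 downward. At least 8-fold changes were called upward for 612 genes and downward for 135, so the larger changes were mostly increases. At 16-fold the counts were 453 and 40, or 433 and 35 with each gene that had no read at one time held at the bound that 3 reads over the 5 libraries allow. The median log2 fold change of all tested genes was -0.02. No read was seen in any 48 HAF library for 134 of the tested genes, all called higher, and in any 72 HAF library for 8, all called lower; these genes entered the test through the time at which they had reads. Without the CR78 pair, in a fit with fewer libraries, 4345 genes were called, 2439 higher and 1906 lower, and 4292 of them were among the 7114.

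On the first principal component, which carried 55.2% of the variance of log2 CPM, the 48 HAF libraries lay between -99.6 and -68.1 and the 72 HAF libraries between 43.8 and 137. The times did not overlap. OE79 and OE78 were the lowest 72 HAF libraries at 43.8 and 54.3, WT followed at 65.9, and CR78 and CR79 lay furthest along at 129 and 137. The second component, with 11.9%, set both CR79 libraries, at -74.0 and -75.4, apart from the other 8.

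**Figure D1:**
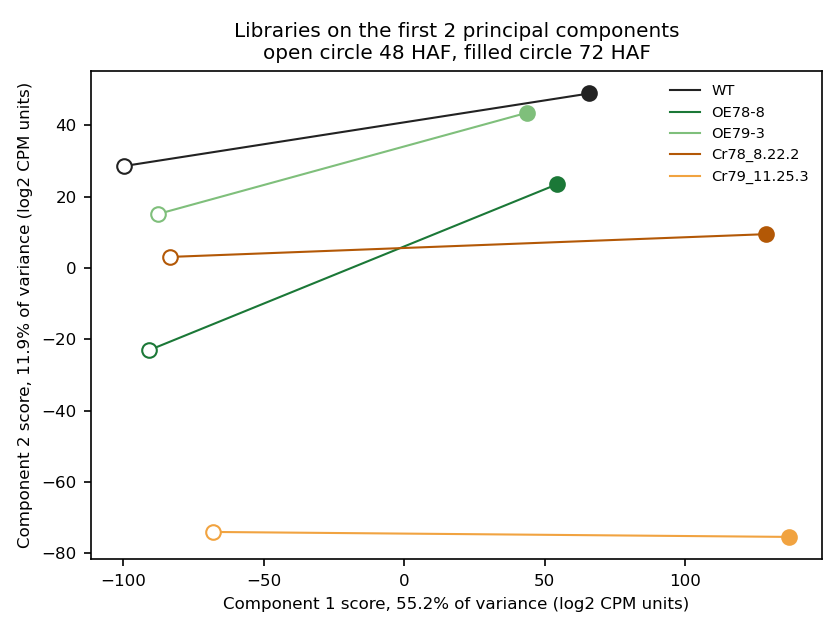
Scores of the 10 libraries on components 1 (x axis) and 2 (y axis) of log2 CPM over the tested genes. Each line joins the 48 HAF library (open circle) of a genotype to its 72 HAF library (filled circle). All 5 lines run from negative to positive scores on component 1, and the CR78 and CR79 lines end furthest to the right, at 129 and 137.

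The reads themselves shifted between the 2 sets of called genes. Genes called higher held 17.2% to 19.1% of the reads in the 48 HAF libraries. At 72 HAF they held, for WT, OE78, OE79, CR78 and CR79, 25.7%, 26.5%, 24.6%, 31.5% and 32.7% of the reads. Genes called lower held 13.6% to 15.7% of the reads at 48 HAF and 7.5% to 10.04% at 72 HAF. These shares describe the genes chosen by the test and carry no test of their own. Of the 100 genes with the highest mean CPM at each time, 69 were the same.

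The 5 pairs mostly moved together in the called genes. Of the 7114 called genes, 6679 (93.9%) had a log2 difference of the same sign in all 5 pairs, 3658 upward and 3021 downward. CPM ranges did not overlap between the times for 4277 of them. The calls were made on these same pairs, so these counts carry no test of their own. Over all tested genes the sign was the same in all 5 pairs for 9536 (37.6%), and the ranges did not overlap in 4681 (18.5%). Across the 25354 genes, the log2 differences of 2 pairs correlated between 0.549 (OE78 with CR79) and 0.750 (CR78 with CR79), given as a description over genes that are not independent.

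Each genotype was also read against a test that had not used it. Genes called in the other 4 pairs were taken, and their direction was counted in the pair left out. Of 2960 genes called higher without WT, 95.4% were higher at 72 HAF in WT, and of 2251 called lower 92.8% were lower. The corresponding shares were 95.1% and 90.4% in OE78, 95.4% and 92.7% in OE79, 98.7% and 96.5% in CR78, and 93.4% and 89.9% in CR79. Among all tested genes 49.1% to 50.3% were higher at 72 HAF in the pair left out. Genes called in 4 genotypes mostly moved the same way in the fifth, which is read from 1 pair of libraries and carries no test of its own.

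The size of the course varied more than its direction. The median log2 difference of genes called higher in the other 4 pairs for WT, OE78, OE79, CR78 and CR79 was 0.75, 0.85, 0.64, 1.21 and 0.84. For genes called lower it was -0.70, -0.62, -0.56, -1.02 and -0.72. CR78 was the only pair in which both medians were larger than those fitted over the other 4 pairs, which were 1.01 and -0.95 in that case. A regression of each pair's log2 differences on the mean of the other 4, over all tested genes, gave slopes of 0.876, 0.754, 0.682, 1.16 and 1.02. Genes at 5 CPM or more that differed at least 2-fold numbered 1885, 2021, 1318, 2862 and 2656 in the same order. OE79 had the smallest of these slopes and counts, and CR78 the largest. The difference between genotypes in these values was not tested, since each is 1 pair of libraries.

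**Figure D2:**
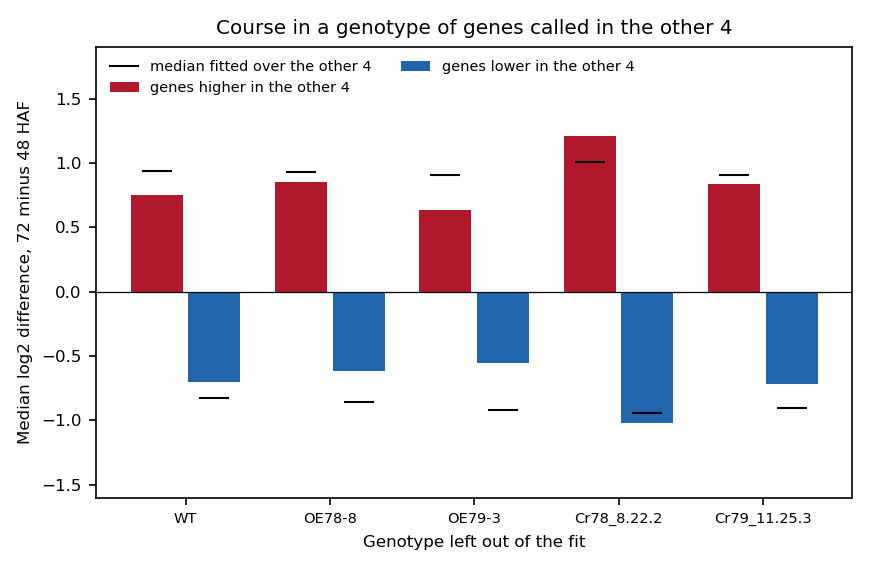
Median log2 difference (72 minus 48 HAF, y axis) in each genotype (x axis) of the genes called higher (red bars) or lower (blue bars) in the other 4 genotypes, with the median fitted over those 4 as a black line. The bars point the same way in every genotype, from 0.64 to 1.21 for the higher genes and from -1.02 to -0.56 for the lower ones.

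Gene lists of 28 processes and tissues were then read, with 314 tested members. Of these, 95 were called higher and 70 lower, together 52.5% of the members against 28.1% of all genes tested. The lists were assembled from known functions with earlier results of these data known, so their counts are descriptions beside that background.

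**Figure D3:**
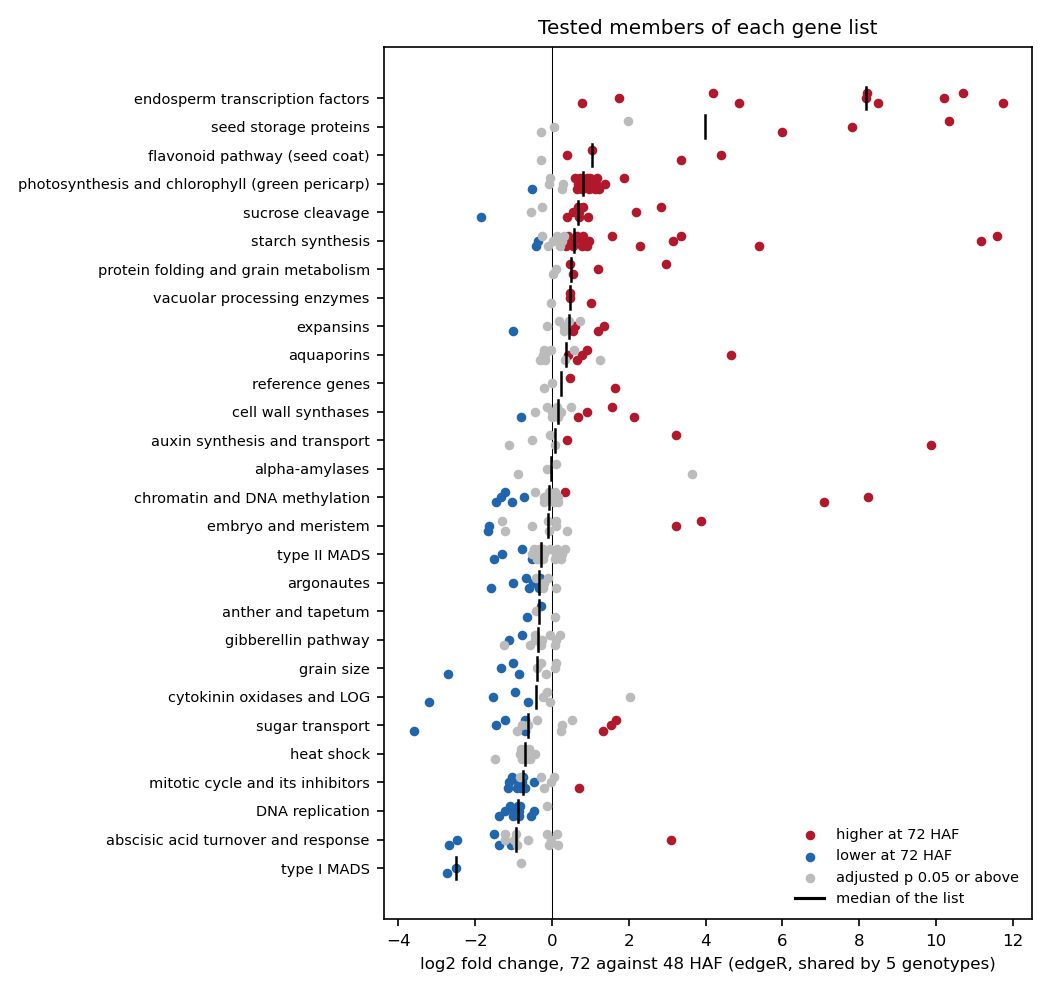
Log2 fold change between 48 and 72 HAF (x axis) of each tested member (point) of each gene list (y axis), in red where called higher, blue where called lower and grey otherwise. Black ticks mark the median of the list. Lists are ordered by median, from the type I MADS genes at -2.49 to the endosperm transcription factors at 8.18.

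Starch synthesis genes were mostly higher at 72 HAF. Starch is built from ADP-glucose by starch synthases, branched by branching enzymes and trimmed by debranching enzymes. Of 27 tested members 18 rose and 2 fell, against 15.2% and 12.9% of all genes, with a median log2 fold change of 0.57. The summed level of the list was 5606 to 6164 CPM at 48 HAF and 7454, 8918, 7725, 15047 and 10508 CPM at 72 HAF, so that every 72 HAF library was above every 48 HAF library.

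Wx (LOC_Os06g04200), which encodes the amylose-making granule-bound synthase, was at 0, 0.0572, 0.2904, 0 and 0 CPM at 48 HAF and 115, 36.8, 77.3, 652 and 533 CPM at 72 HAF. Its 5 libraries of 48 HAF held 6 reads together, and the 72 HAF libraries held 564 to 9632 reads each (edgeR adjusted p = 1.66e-05). The gene had almost no reads at 48 HAF and was present in every genotype at 72 HAF, with the highest values in CR78 and CR79. SSIIa (LOC_Os06g12450), a soluble synthase that elongates amylopectin chains, was at 5.396, 2.803, 2.904, 2.76 and 2.398 CPM at 48 HAF and 105, 69.1, 63.7, 376 and 239 CPM at 72 HAF. The times did not overlap, and the log2 fold change was 5.38 (edgeR adjusted p = 0.000154, SE 0.466). ISA1 (LOC_Os08g40930), an isoamylase-type debranching enzyme, was at 30.4, 17.3, 24.5, 35.2 and 13.3 CPM at 48 HAF and 104, 73.8, 64.3, 242 and 145 CPM at 72 HAF. It rose by 2.29 (edgeR adjusted p = 0.000712, SE 0.274), again with CR78 and CR79 highest at 72 HAF. AGPS2 (LOC_Os08g25734), a small subunit of the ADP-glucose pyrophosphorylase that supplies the substrate, was at 190.0, 201, 183, 178 and 168 CPM at 48 HAF and 361, 375, 347, 1270.2 and 846 CPM at 72 HAF. The 3 genotypes other than the CRISPR lines lay within 347 to 375 CPM at 72 HAF, and the log2 fold change was 1.57 (edgeR adjusted p = 0.00728, SE 0.311).

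Paralogs of SSIIa made up the falling members. SSIIb (LOC_Os02g51070) was at 77.4, 78.9, 74.8, 70.7 and 66.8 CPM at 48 HAF and 49.2, 73.7, 62.3, 49.3 and 43.99 CPM at 72 HAF. SSIIc (LOC_Os10g30156) went from between 47.1 and 63.5 to between 35.6 and 49.2 CPM. Their log2 fold changes were -0.43 and -0.35 (edgeR adjusted p = 0.0157 and 0.0229), small beside those of the members above. Neither call held without the WT pair (adjusted p of 0.0621 and 0.0674), and leaving out any other pair ended 1 of the 2 calls.

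Sucrose cleavage genes were also mostly higher at 72 HAF. Sucrose that reaches the seed is split by sucrose synthases (SUS) or by invertases (CIN). Of 12 tested members 9 rose and 1 fell, against 15.2% and 12.9% of all genes, with a median log2 fold change of 0.68. SUS3 (LOC_Os07g42490) was at 229, 176, 241, 271 and 204 CPM at 48 HAF and 1219, 952, 942, 4098 and 2255 CPM at 72 HAF. Every 72 HAF library was far above every 48 HAF library, and the log2 fold change was 2.83 (edgeR adjusted p = 0.000332, SE 0.289). SUS2 (LOC_Os06g09450) was at 378, 373, 447, 388 and 293 CPM at 48 HAF and 622, 484, 573, 1059 and 637 CPM at 72 HAF and rose by 0.80 (edgeR adjusted p = 0.00942). GIF1 (LOC_Os04g33740), which encodes an apoplastic invertase that acts during grain filling, went from between 154 and 255 to between 225 and 336 CPM, with overlapping times and a log2 fold change of 0.67 (edgeR adjusted p = 0.00507), which became 0.0653 without both OE78 and CR78. CIN1 (LOC_Os02g33110), a cell wall invertase gene, moved the other way, at 39.5, 50.96, 40.7, 30.6 and 11.6 CPM at 48 HAF and 9.38, 8.55, 15.8, 6.02 and 6.45 CPM at 72 HAF. It fell by 1.86 on the log2 scale (edgeR adjusted p = 0.00101, SE 0.241), and CR79, the lowest at 48 HAF, showed the smallest drop. Without WT, or without CR78, 5 of the 12 members were called higher, and 5 were without the pairing by genotype.

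Sugar transporters split in 2 directions. SWEET proteins let sugars out of cells and SUT proteins load sucrose. Of 15 tested members 3 rose and 5 fell, against 15.2% and 12.9% of all genes, with a median log2 fold change of -0.63. SWEET11 (LOC_Os08g42350), a sucrose exporter of the seed in rice, was at 367, 415, 319, 358 and 507 CPM at 48 HAF and 1099, 1502, 1012, 1278 and 1350.4 CPM at 72 HAF. The times did not overlap, and the rise of 1.67 on the log2 scale had a small error (edgeR adjusted p = 4.15e-05, SE 0.104). SWEET14 (LOC_Os11g31190) was at 4.22, 4.46, 3.66, 5.59 and 3.197 CPM at 48 HAF and 17.2, 12.5, 6.45, 15.9 and 11.8 CPM at 72 HAF, a log2 fold change of 1.55 (edgeR adjusted p = 0.000792). SUT1 (LOC_Os03g07480) was at 20.4, 23.2, 24.2, 20.3 and 33.4 CPM at 48 HAF and 46.02, 46.8, 39.6, 96.4 and 97.2 CPM at 72 HAF and rose by 1.34 (edgeR adjusted p = 0.00201, SE 0.1997). All 3 were higher at 72 HAF in every pair. SWEET5 (LOC_Os05g51090) was at 13.1, 6.46, 9.82, 0.691 and 7.32 CPM at 48 HAF and 1.05, 0.783, 0.199, 0.474 and 0.177 CPM at 72 HAF. It fell by 3.60 on the log2 scale (edgeR adjusted p = 0.00256, SE 0.566), with CR78 already under 1 CPM at 48 HAF. SWEET5 had the lowest level of the 5 that fell, whose means at 48 HAF ran from 7.47 to 208 CPM. All 5 were lower at 72 HAF in every pair, with log2 fold changes from -3.60 to -0.70.

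**Figure D4:**
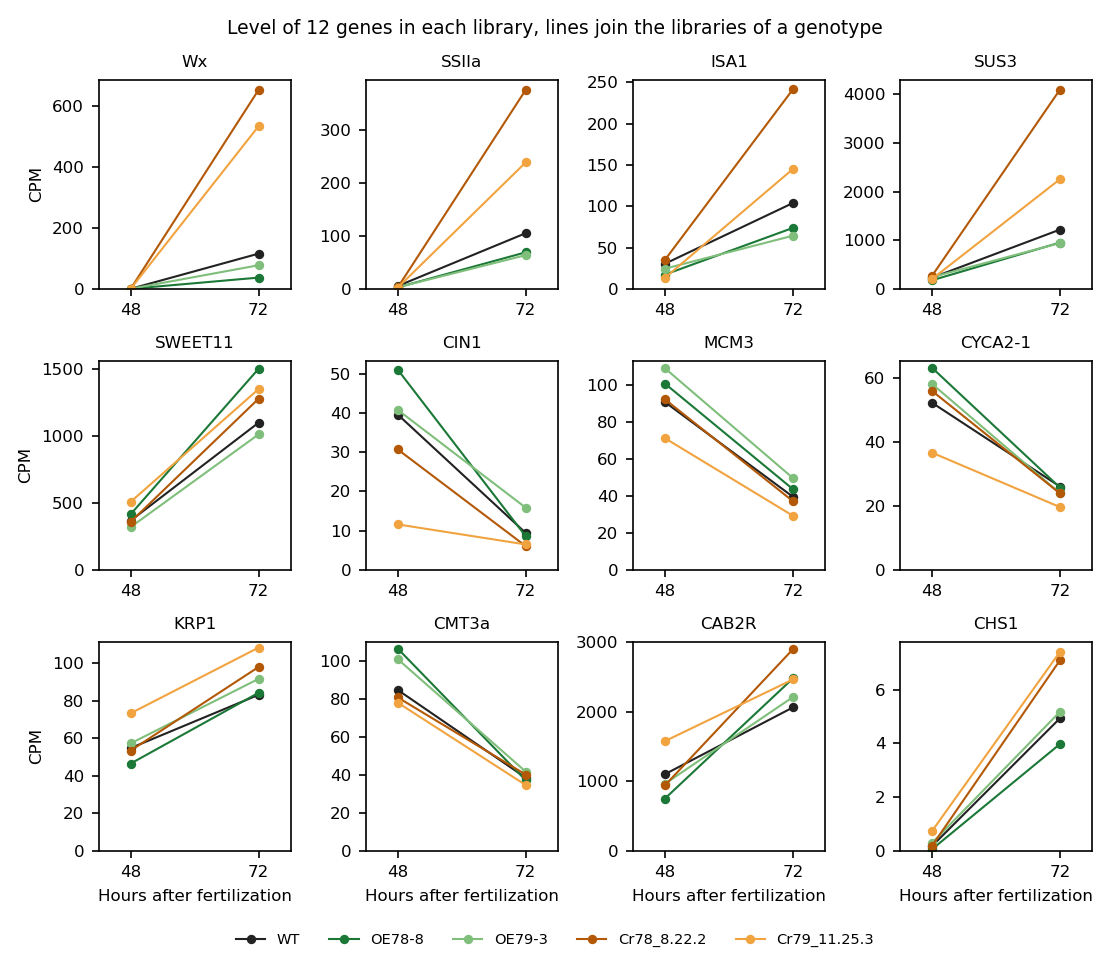
CPM (y axes, each starting at 0) at 48 and 72 HAF (x axes) of 12 genes, with 1 line for each genotype. Wx, SSIIa, ISA1 and SUS3 rise in all 5 genotypes and reach their highest values in Cr78_8.22.2 and Cr79_11.25.3, SWEET11, KRP1, CAB2R and CHS1 rise, and CIN1, MCM3, CYCA2-1 and CMT3a fall in every genotype.

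All 10 endosperm transcription factors were called higher at 72 HAF, against 15.2% of all genes. For 9 of them the times did not overlap, against 18.5% of all genes. These proteins regulate starch and storage genes in the endosperm. The list had few reads at 48 HAF: 3 members had no read in any 48 HAF library and 5 had at most 3 reads. Such members entered the test through their reads at 72 HAF. All 134 tested genes without a read at 48 HAF were called higher, so the calls of these 3 carry no support of their own. The median log2 fold change was 8.18, or 8.08 with the members without reads held at their bound. NF-YB1 and RSR1 were the only 2 of the 10 whose names passed the check against RefSeq described below. The other names were missing from that table and rest on published identifiers. The summed level of the list was 20.4, 28.0, 18.9, 21.5 and 32.7 CPM at 48 HAF and 95.4, 107, 90.5, 433 and 423 CPM at 72 HAF. NF-YB1 (LOC_Os02g49410), a subunit of an endosperm NF-Y complex, was at 0, 0.0572, 0, 0 and 0 CPM at 48 HAF and 4.61, 3.26, 4.39, 13.6 and 11.8 CPM at 72 HAF. Its 534 reads at 72 HAF against 1 at 48 HAF gave a ratio of 602 with an exact 95% interval of 108 to 23811 that covers counting error only (edgeR adjusted p = 4.26e-05). RSR1 (LOC_Os05g03040), an AP2-type regulator described in rice as a repressor of starch genes, was already present at 48 HAF. It was at 18.7, 17.6, 17.2, 14.3 and 13.7 CPM at 48 HAF and 32.4, 26.2, 24.3, 25.04 and 31.8 CPM at 72 HAF and rose by 0.78 (edgeR adjusted p = 0.00233, SE 0.1196).

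Storage protein genes gave few calls. Of 10 members 6 had enough reads to be tested and 3 were called higher, beside 15.2% of all genes. These 3 had at most 1 read over the 48 HAF libraries. The median log2 fold change was 3.98, or 3.74 with the members without reads at 48 HAF held at their bound. GluB2 (LOC_Os02g15150), a glutelin, had no read at 48 HAF and was at 0, 0.522, 0.133, 15.4 and 38.5 CPM at 72 HAF, at least 253-fold higher against a floor of 3 reads over the 5 libraries. GluB4 (LOC_Os02g16830), another glutelin, had no read at 48 HAF and was at 0, 0.587, 0.199, 0.880 and 8.39 CPM at 72 HAF, at least 45.1-fold higher. RAG2 (LOC_Os07g11380), a seed albumin, had 1 read at 48 HAF and was at 0, 0.326, 0.133, 4.13 and 3.00 CPM at 72 HAF. None of the 3 had a read in WT at 72 HAF, so the course was not seen in all 5 genotypes. DESeq2 gave them adjusted p of 0.0952, 0.1802 and 0.127, and without CR78 or without CR79 they had too few reads to be tested. Glutelin genes are near-identical copies, and how reads were divided among them is not given in the sources used here.

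Most DNA replication genes fell. The MCM proteins form the helicase that opens DNA, and PCNA is the clamp that holds the polymerase. Of 12 tested members 11 fell, against 12.9% of all genes, and 1 did not pass, with a median log2 fold change of -0.88. The times did not overlap for 9 of the 12, against 18.5% of all genes. The summed level of the list was 1067, 1259, 1262, 1026 and 864 CPM at 48 HAF and 581, 665, 668, 488 and 450 CPM at 72 HAF. The drop was of like size in each pair, with medians of -0.91, -0.81, -0.91, -1.08 and -0.85 on the log2 scale. MCM3 (LOC_Os05g39850) was at 90.7, 101, 109, 92.2 and 71.2 CPM at 48 HAF and 39.5, 43.6, 49.6, 37.1 and 29.2 CPM at 72 HAF. It fell by 1.23 on the log2 scale (edgeR adjusted p = 3.37e-05, SE 0.07395). The clamp gene PCNA (LOC_Os02g56130) was at 188, 222, 222, 189 and 165 CPM at 48 HAF and 103, 125, 128, 103 and 85.7 CPM at 72 HAF, a log2 fold change of -0.86 (edgeR adjusted p = 0.00015, SE 0.0742). MCM2 (LOC_Os11g29380) and MCM4 (LOC_Os01g36390) had log2 fold changes of -0.84 and -1.11 (edgeR adjusted p = 0.000181 and 0.000226). The times did not overlap for any of these 4 genes, MCM4 coming closest with a lowest 48 HAF value of 53.0 and a highest 72 HAF value of 50.6 CPM.

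Genes of mitosis mostly fell. Cyclins activate the kinases that drive division, and KRP proteins inhibit those kinases. Of 16 tested members 10 fell, 1 rose and 5 did not pass, with a median log2 fold change of -0.76. Of all genes 12.9% fell and 15.2% rose. CYCA2-1 (LOC_Os12g31810), an A-type cyclin, was at 52.3, 63.2, 58.1, 55.96 and 36.6 CPM at 48 HAF and 26.03, 25.7, 23.9, 23.9 and 19.6 CPM at 72 HAF. It fell by 1.14 on the log2 scale (edgeR adjusted p = 0.000122, SE 0.0926). CYCB2-1 (LOC_Os04g47580), a B-type cyclin, was at 134, 131, 124, 139 and 106 CPM at 48 HAF and 54.8, 77.05, 68.3, 81.7 and 55.8 CPM at 72 HAF, and its log2 fold change was -0.92 (edgeR adjusted p = 0.000383). The inhibitors did not move together. KRP5 (LOC_Os03g05300) was at 66.3, 72.9, 68.5, 68.6 and 61.4 CPM at 48 HAF and 38.1, 40.4, 40.9, 42.97 and 35.6 CPM at 72 HAF and fell by 0.77 on the log2 scale (edgeR adjusted p = 0.000255, SE 0.0742). KRP1 (LOC_Os02g52480), the member that rose, was at 54.8, 46.5, 57.3, 53.4 and 73.3 CPM at 48 HAF and 83.2, 84.3, 91.7, 98.04 and 108 CPM at 72 HAF, a log2 fold change of 0.72 (edgeR adjusted p = 0.000589, SE 0.0824). The kinase genes CDKA1 and CDKA2 had log2 fold changes of 0.06 and -0.21 and were not called.

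Chromatin genes had no common direction. Of 17 tested members 3 rose and 5 fell, against 15.2% and 12.9% of all genes, and the median log2 fold change was -0.07. The log2 fold changes ran from -1.45 to 8.24. Of the 3 that rose, 1 had no read in any 48 HAF library and entered the test through its reads at 72 HAF. All 134 tested genes of that kind were called higher, so its call carries no support of its own. CMT3a (LOC_Os10g01570), a chromomethylase that maintains methylation outside CG sites, was at 84.6, 106, 101, 80.6 and 77.9 CPM at 48 HAF and 38.4, 37.1, 41.6, 40.1 and 34.5 CPM at 72 HAF. The times did not overlap, and the log2 fold change was -1.22 (edgeR adjusted p = 9.18e-05, SE 0.0927). MET1a (LOC_Os03g58400), a maintenance methyltransferase of CG sites, was at 8.21, 12.4, 8.95, 9.42 and 7.93 CPM at 48 HAF and 5.495, 5.02, 5.85, 5.35 and 6.27 CPM at 72 HAF. Its log2 fold change was -0.73 (edgeR adjusted p = 0.014), and without the CR78 pair its adjusted p was 0.0519. DRM2, a de novo methyltransferase, was at 44.0 to 56.4 and 45.0 to 58.3 CPM at the 2 times and was not called.

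Argonautes, the proteins that carry small RNAs, fell in part. Of 13 tested members 8 fell, against 12.9% of all genes, and 5 did not pass, with a median log2 fold change of -0.35. AGO4B (LOC_Os04g06770), of the clade that acts in RNA-directed DNA methylation, was at 241, 225, 256, 219.9 and 222 CPM at 48 HAF and 171, 148, 159.8, 130.2 and 121 CPM at 72 HAF. It fell by 0.68 on the log2 scale (edgeR adjusted p = 0.000884, SE 0.08604). SHL4 (LOC_Os03g33650), of the AGO7 type, was at 4.69, 7.84, 6.62, 5.02 and 3.44 CPM at 48 HAF and 1.33, 1.696, 2.59, 1.42 and 2.03 CPM at 72 HAF, a log2 fold change of -1.6 (edgeR adjusted p = 0.00254). PNH1 (LOC_Os06g39640) and MEL1 (LOC_Os03g58600) had log2 fold changes of -0.59 and -1.01 (edgeR adjusted p = 0.00702 and 0.00825). MEL1 stayed under 7 CPM in every library. Without both OE78 and CR78 the adjusted p of SHL4, PNH1 and MEL1 was 0.0575, 0.0511 and 0.0555. The number of members that fell was 4 without OE79 or CR78 and 5 without OE78 or without the pairing by genotype.

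Of 13 tested cell wall synthases 4 rose and 1 fell, 38.5% called beside 28.1% of all genes, with a median log2 fold change of 0.15. CESA8 (LOC_Os07g10770), a cellulose synthase, was at 195, 137, 197, 168 and 149 CPM at 48 HAF and 286, 249.6, 286, 323 and 211 CPM at 72 HAF, a log2 fold change of 0.68 (edgeR adjusted p = 0.0017, SE 0.0982). CSLF6 (LOC_Os08g06380), which makes mixed-linkage glucan in cereals, was at 349, 234, 354, 360.3 and 323 CPM at 48 HAF and 608, 680.1, 692, 616 and 433 CPM at 72 HAF. Its times did not overlap and it rose by 0.90 (edgeR adjusted p = 0.00342, SE 0.15). CESA7 (LOC_Os10g32980), a secondary wall cellulose synthase, was at 1.41, 0.801, 1.39, 1.696 and 0.492 CPM at 48 HAF and 8.83, 4.697, 3.52, 3.52 and 5.21 CPM at 72 HAF and rose by 2.14 (edgeR adjusted p = 0.00358). CSLF9 (LOC_Os07g36610), a relative of CSLF6, fell by 0.80 on the log2 scale (edgeR adjusted p = 0.00895), from between 28.3 and 53.2 to between 12.6 and 29.5 CPM.

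Expansins loosen walls and aquaporins pass water, and both act in cell enlargement. Of 11 tested expansins 4 rose and 1 fell, against 15.2% and 12.9% of all genes. EXPB3 (LOC_Os10g40720) was at 99.2, 123, 109, 109 and 117 CPM at 48 HAF and 197, 282, 223, 358 and 246 CPM at 72 HAF, and every 72 HAF library was above every 48 HAF library (log2 fold change 1.2, SE 0.119, edgeR adjusted p = 0.000285). EXPB6 (LOC_Os10g40700) and EXPB4 (LOC_Os10g40730) rose by 1.35 and 0.56 on the same scale (edgeR adjusted p = 0.0031 and 0.00789), and EXPB4 was at an adjusted p of 0.0977 without both OE78 and CR78. EXPA5 (LOC_Os02g51040) was at 172, 157, 215, 181 and 109 CPM at 48 HAF and 88.7, 105, 116, 64.7 and 46.7 CPM at 72 HAF and fell by 1.02 (edgeR adjusted p = 0.00085, SE 0.128). Of 14 tested aquaporins 5 rose and 9 did not pass. The called share was 35.7%, all higher, beside 28.1% of all genes called and 15.2% called higher. PIP1-2 (LOC_Os04g47220), of the plasma membrane, was at 214, 213, 222, 168 and 223 CPM at 48 HAF and 364, 353, 359, 408 and 309 CPM at 72 HAF and rose by 0.79 (edgeR adjusted p = 0.00216, SE 0.119). PIP1-3 (LOC_Os02g57720) and PIP1-1 (LOC_Os02g44630) rose by 0.90 and 0.41 (edgeR adjusted p = 0.0033 and 0.0103), the call of PIP1-1 being lost without those 2 lines (adjusted p = 0.122). The 7 tested PIP2 genes were not called, with log2 fold changes from -0.30 to 0.57. TIP2-1 (LOC_Os02g44080), of the vacuole membrane, had 6 reads over the 48 HAF libraries and was at 1.83, 1.37, 0.864, 2.64 and 3.45 CPM at 72 HAF (edgeR adjusted p = 0.001).

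Photosynthesis and chlorophyll genes, taken here as markers of the green pericarp, were mostly higher at 72 HAF. In these bulk seeds the tissue their reads came from was not tested. The names of 9 of the 21 passed the check against RefSeq described below. Of 21 tested members 16 rose and 1 fell, against 15.2% and 12.9% of all genes, with a median log2 fold change of 0.81. The times did not overlap for 15, against 18.5% of all genes. The summed level of the list was 8494, 7315, 7823, 7622 and 11643 CPM at 48 HAF and 13584, 16998, 15048, 17443 and 15496 CPM at 72 HAF. CR79 had the highest sum at 48 HAF and the smallest median difference, 0.36 against 0.69 to 1.11 in the other pairs. CAB2R (LOC_Os01g41710), a chlorophyll-binding antenna protein, was at 1102, 751, 964, 941 and 1578 CPM at 48 HAF and 2064, 2481, 2212, 2901 and 2466 CPM at 72 HAF. It rose by 1.22 (edgeR adjusted p = 0.00156, SE 0.173). LHCB2 (LOC_Os03g39610), another antenna protein, was at 655, 559.9, 584, 570.3 and 960.0 CPM at 48 HAF and 1135, 1551, 1406, 1692 and 1497 CPM at 72 HAF and rose by 1.15 (edgeR adjusted p = 0.00127, SE 0.156). CHLH (LOC_Os03g20700), a subunit of the magnesium chelatase of chlorophyll synthesis, rose by 0.64 (edgeR adjusted p = 0.00612), a call lost without both OE78 and CR78 (adjusted p = 0.0731). GLK2 (LOC_Os01g13740), a transcription factor of chloroplast development, fell by 0.51 on the log2 scale (edgeR adjusted p = 0.0113), from between 20.9 and 25.8 to between 14.4 and 20.2 CPM. These genes, read here as maternal markers, moved in the same interval as the starch and endosperm genes. The part of maternal tissue in those results was not tested.

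Flavonoid genes, taken here as markers of the seed coat, and the vacuolar processing enzymes also rose in part. The tissue their reads came from was not tested. Of 5 tested flavonoid genes 4 rose, against 15.2% of all genes. CHS1 (LOC_Os11g32650), chalcone synthase, which makes the first flavonoid skeleton, was at 0.176, 0.0572, 0.2904, 0.188 and 0.738 CPM at 48 HAF and 4.94, 3.98, 5.18, 7.105 and 7.42 CPM at 72 HAF. It was under 1 CPM in every 48 HAF library and rose by 4.39 (edgeR adjusted p = 0.00014, SE 0.371). Of 4 vacuolar processing enzymes, proteases that mature storage proteins and act in cell death, 3 rose, against 15.2% of all genes. VPE1 (LOC_Os04g45470) was at 53.7, 45.3, 53.2, 61.99 and 34.2 CPM at 48 HAF and 65.4, 62.6, 57.4, 94.6 and 60.5 CPM at 72 HAF, a log2 fold change of 0.46 (edgeR adjusted p = 0.0167), and its adjusted p was 0.0652 without CR78 and 0.0740 without the pairing by genotype. Among 6 genes of protein folding and grain metabolism 4 rose, against 15.2% of all genes. PPDKB (LOC_Os05g33570), a pyruvate orthophosphate dikinase of the grain, was at 43.1, 51.8, 45.4, 52.6 and 57.4 CPM at 48 HAF and 198, 190.4, 199, 1661 and 848 CPM at 72 HAF. The genotypes other than the CRISPR lines lay at 190 to 199 CPM at 72 HAF, and the log2 fold change was 2.98 (edgeR adjusted p = 0.00257, SE 0.468). PDIL1-1 (LOC_Os11g09280), a protein disulfide isomerase that helps fold storage proteins, had a log2 fold change of 0.47 (edgeR adjusted p = 0.0276), which was lost without OE78, CR78 or CR79 (adjusted p of 0.0603, 0.0942 and 0.0908). The number of members of this list that rose was 2 in each of these fits.

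Hormone genes were read by pathway. Among 7 tested genes of auxin synthesis and transport 3 rose, against 15.2% of all genes. Of these 3, 1 had no read in any 48 HAF library and entered the test through its reads at 72 HAF. All 134 tested genes of that kind were called higher, so its call carries no support of its own. TAA1 (LOC_Os01g07500), which makes the precursor indole-3-pyruvate, had a log2 fold change of 0.38 (edgeR adjusted p = 0.0248), and its adjusted p was 0.0947 without the pairing and between 0.0562 and 0.0762 without WT, OE79, CR78 or CR79. Among 12 tested gibberellin genes 2 fell, a share of 16.7% near the 12.9% of all genes called lower. GA20ox2 (LOC_Os01g66100), the oxidase known as the semidwarf gene of rice, was at 44.1, 37.9, 38.3, 29.7 and 36.8 CPM at 48 HAF and 18.98, 14.1, 27.3, 11.8 and 15.7 CPM at 72 HAF. Its times did not overlap and it fell by 1.13 on the log2 scale (edgeR adjusted p = 0.000842, SE 0.142).

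Among 8 tested cytokinin oxidases and LOG genes 4 fell, against 12.9% of all genes. LOG (LOC_Os01g40630), which releases active cytokinin, was at 11.4, 10.2, 8.89, 9.48 and 7.44 CPM at 48 HAF and 5.16, 5.41, 5.65, 4.53 and 3.62 CPM at 72 HAF, with no overlap of the times and a log2 fold change of -0.96 (edgeR adjusted p = 0.00199, SE 0.143). CKX2 (LOC_Os01g10110), a cytokinin oxidase known from rice grain number, was at 18.5, 17.2, 24.6, 26.5 and 21.6 CPM at 48 HAF and 5.94, 7.89, 21.7, 3.92 and 4.51 CPM at 72 HAF. OE79 hardly differed between its times, while the other 4 genotypes were much lower at 72 HAF, and the log2 fold change was -1.55 (edgeR adjusted p = 0.0107, SE 0.335). Its adjusted p was 0.0844 without both OE78 and CR78. CKX5 (LOC_Os01g56810), at 14.8, 9.49, 12.2, 13.8 and 9.16 CPM at 48 HAF and 6.99, 6.26, 11.96, 6.77 and 7.07 CPM at 72 HAF, had the same exception. Its log2 fold change was -0.62 (edgeR adjusted p = 0.0334), with adjusted p of 0.108, 0.0692 and 0.119 without WT, OE78 or CR78 and 0.0538 without the pairing. The number of members that fell was 2 without WT.

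Of 17 tested abscisic acid genes 5 fell and 1 rose, against 12.9% and 15.2% of all genes, with a median log2 fold change of -0.93. The called share in either direction was 35.3%, beside 28.1% of all genes. The medians of the pairs were -0.47, -0.17, 0.06, -1.07 and -1.40, so the list did not move alike in the 5 genotypes. NCED3 (LOC_Os03g44380), of the rate-limiting step of abscisic acid synthesis, was at 44.3, 15.5, 32.8, 31.3 and 10.02 CPM at 48 HAF and 8.49, 6.26, 8.71, 1.83 and 0.972 CPM at 72 HAF. It fell by 2.46 on the log2 scale (edgeR adjusted p = 0.0017, SE 0.356). LEA3 (LOC_Os05g46480), a late embryogenesis abundant protein induced by abscisic acid, was at 90.3, 171, 64.1, 40.4 and 83.3 CPM at 48 HAF and 23.1, 69.3, 55.2, 30.6 and 30.7 CPM at 72 HAF, a log2 fold change of -1.07 (edgeR adjusted p = 0.0132), with an adjusted p of 0.0540 without the pairing. PP2C51 (LOC_Os05g49730), a clade A phosphatase of the signalling pathway, had a log2 fold change of -1.37 (edgeR adjusted p = 0.0233) and an adjusted p of 0.0831 without WT. VP1 (LOC_Os01g68370), a B3 transcription factor of seed maturation, was the member that rose. It was at 0.469, 0.972, 0.2904, 0.251 and 0.369 CPM at 48 HAF and 2.44, 2.15, 3.79, 8.796 and 5.21 CPM at 72 HAF, below 1 CPM in every 48 HAF library and above 2 CPM in every 72 HAF library (log2 fold change 3.10, SE 0.529, edgeR adjusted p = 0.00382). The number of members that fell was 3 without WT or CR78 and 2 without the pairing.

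Of 21 tested type II MADS genes, which specify flower organs and ovules, 4 fell and 17 did not pass. The called share was 19.0%, all lower, beside 28.1% of all genes called and 12.9% called lower. MADS17 (LOC_Os04g49150), of the AGL6 type, was at 53.2, 41.1, 48.5, 55.6 and 54.5 CPM at 48 HAF and 25.6, 31.8, 30.5, 24.7 and 34.98 CPM at 72 HAF. Its times did not overlap and it fell by 0.78 on the log2 scale (edgeR adjusted p = 0.00286, SE 0.125). MADS16 (LOC_Os06g49840), a B-class gene, was at 20.9, 32.4, 18.7, 25.4 and 10.3 CPM at 48 HAF and 8.33, 11.9, 15.2, 3.86 and 2.47 CPM at 72 HAF, a log2 fold change of -1.52 (edgeR adjusted p = 0.00736, SE 0.3005), with an adjusted p of 0.0751 without both OE78 and CR78. MADS6 (LOC_Os02g45770), also of the AGL6 type, had a log2 fold change of -0.52 (edgeR adjusted p = 0.0248), with adjusted p of 0.0736, 0.0861 and 0.0753 without WT, CR78 or CR79. Without OE78 the number that fell was 7. Among 3 tested type I MADS genes 2 fell, MADS79 among them, against 12.9% of all genes, and 1 fell without WT or CR78.

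Of 12 tested embryo and meristem genes 2 rose and 2 fell. The called share of 33.3% lay near the 28.1% of all genes. The summed level of the list was 185 to 221 CPM at 48 HAF and 223 to 274 CPM at 72 HAF, higher at 72 HAF in every pair. The log2 fold changes ran from -1.68 to 3.89, with a median of -0.09. OSH1 (LOC_Os03g51690), a KNOX homeobox gene of the shoot meristem, was at 11.96, 23.4, 19.1, 21.9 and 9.099 CPM at 48 HAF and 8.27, 6.52, 12.96, 2.23 and 1.59 CPM at 72 HAF. Its log2 fold change was -1.63 (edgeR adjusted p = 0.017, SE 0.396), and its adjusted p was 0.0506 without OE78 and 0.0502 without the pairing. OSH15 (LOC_Os07g03770), of the same family, was at 1.47, 3.66, 1.63, 5.15 and 1.84 CPM at 48 HAF and 0.555, 0.718, 1.99, 0.474 and 0.5301 CPM at 72 HAF, lower at 72 HAF in every pair but OE79. Its log2 fold change was -1.68 (edgeR adjusted p = 0.0406), with adjusted p of 0.0833 to 0.129 without WT, OE78, CR78 or CR79. The number that fell was 0 without OE78 and 1 without CR78 or CR79.

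Heat shock genes, kept as markers of stress in a library, gave 0 called of 11 tested, beside 28.1% of all genes. Unadjusted p was under 0.05 for 2 of them in edgeR, and DESeq2 called 1. Their median log2 fold change was -0.71, and the medians of the pairs were -0.79, 0.17, 0.42, -2.16 and -0.53. HSP101, a chaperone that dissolves protein aggregates, stood at 143 CPM in CR78 at 48 HAF and at 9.68 to 18.3 CPM in the other libraries. Without OE79, 2 of the 11 were called lower.

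**Figure D5:**
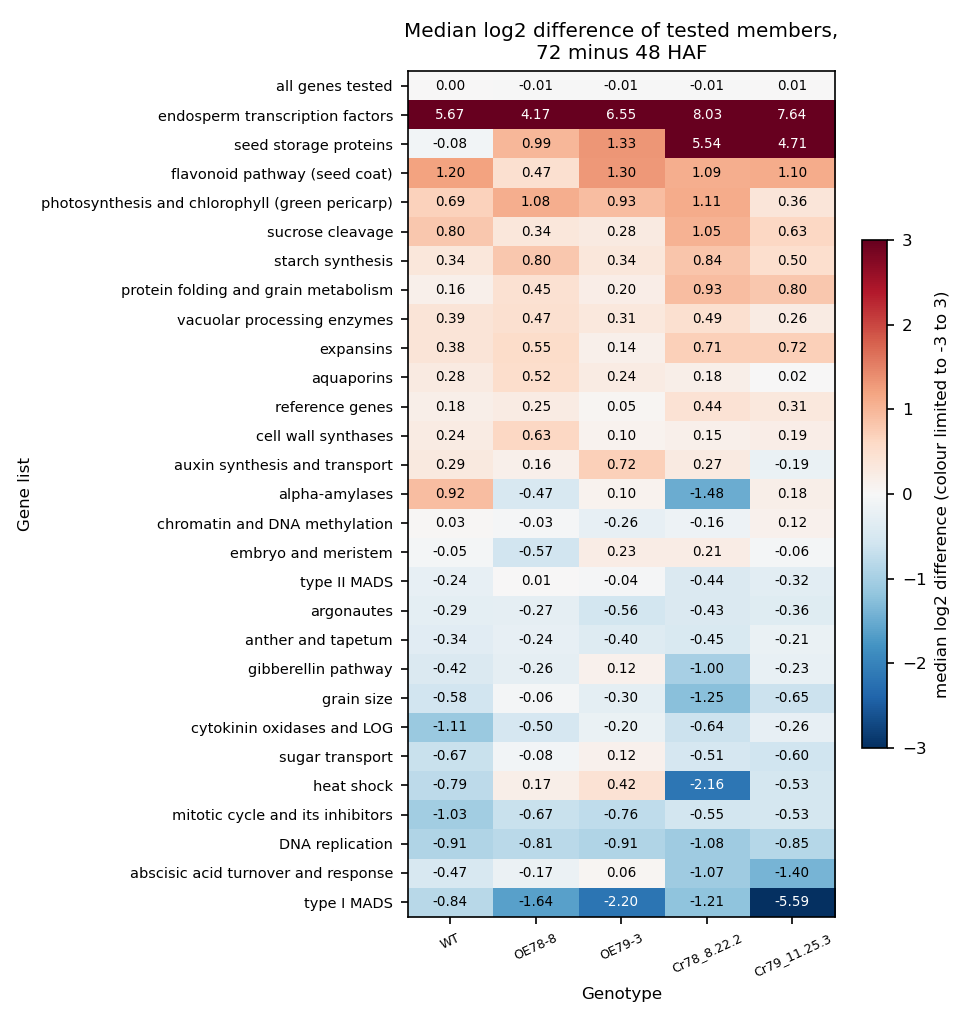
Median log2 difference (72 minus 48 HAF, colour and printed value) of the tested members of each gene list (rows) in each genotype (columns), with all tested genes in the top row. The endosperm transcription factors are positive in all 5 genotypes, from 4.17 to 8.03, the DNA replication genes negative in all 5, from -1.08 to -0.81, and the heat shock genes vary from -2.16 in Cr78_8.22.2 to 0.42 in OE79-3.

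Outside the lists, the genes with the smallest adjusted p among the more abundant ones carry no name here. LOC_Os10g32580 was at 0.352, 0.744, 1.57, 1.13 and 0.922 CPM at 48 HAF and at 643, 693, 404, 953 and 936 CPM at 72 HAF. LOC_Os05g44200 was at 14.7, 9.72, 9.47, 10.2 and 17.6 CPM and then at 189, 157, 128, 229 and 228 CPM. Their log2 fold changes were 9.55 (SE 0.366) and 3.92 (SE 0.141), and both were higher in all 5 pairs (edgeR adjusted p = 4.34e-06 and 3.53e-06). LOC_Os03g02290 went from 98.9, 102, 102, 99.8 and 67.6 CPM to 40.4, 38.6, 43.7, 43.0 and 29.9 CPM. LOC_Os06g06460 went from 152, 181, 161, 138 and 108 CPM to 52.9, 58.4, 69.9, 52.3 and 37.0 CPM. Their log2 fold changes were -1.26 (SE 0.0755) and -1.46 (SE 0.0878), and both were lower in all 5 pairs (edgeR adjusted p = 3.32e-05 and 3.37e-05).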

How the data were processed

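RNA of rice seeds without husk was sequenced in 10 libraries, 1 for each of 5 genotypes at 48 and 72 HAF; per the labels' protocols, RNA came from an RNeasy Plant mini kit and libraries from standard Illumina protocols. The deposited values are raw read counts per gene, with no normalization, for 55801 features, of which 15472 had no read in any library. TopHat2 and HTSeq are named without versions, per the submitters' processing notes. The sources used here give no genome build, annotation or strand setting, so no coordinates are printed, and reads of close paralogs or overlapping genes may be split in ways that could not be checked.

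Totals of 12267337 to 18040600 reads set the depth. Counts were filtered with edgeR's filterByExpr on the design at a minimum count of 10, scaled by TMM and fitted with edgeR 4.0.16 (R 4.3.3) by the quasi-likelihood test, two-sided, with genotype and time as terms over all 10 libraries and 4 residual degrees of freedom. The biological coefficient of variation was 20.7%. Adjusted p-values are Benjamini-Hochberg over 25354 genes. Log2 differences within a pair use a prior count of 0.5. Intervals and floors, the latter of 3 reads over the 5 libraries of a time, cover counting error only.

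The genotype pairs the libraries, since the labels name the same line at 48 and 72 HAF. The deviations of its 2 libraries from their time means correlated at 0.313, 0.1003, 0.3204, 0.118 and 0.2801 for WT, OE78, OE79, CR78 and CR79. OE78 at 48 HAF correlated more with CR79 at 72 HAF (0.134) than with its own line, so the deviations do not bear out the pairing for every line, and it rests on the labels. Alternatives were RLE and upper-quartile scaling, no filter, DESeq2 1.42.0, no pairing, and leaving out both libraries of each genotype or of OE78 and CR78 together.

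The members, gene lists and named genes were chosen with earlier results of these data known. The rule for names took from each list up to 4 called members of smallest adjusted p and up to 2 called in the opposite direction, or 2 of the highest CPM where none was called. Outside the lists it took the 2 genes that rose and the 2 that fell with the smallest adjusted p among those moving alike in 5 pairs, at least 2-fold, with a mean of at least 50 CPM. It also took MADS78 and MADS79. Other members given by value were named after their values were seen. Of 357 published pairs of name and identifier, 237 passed a check that the RefSeq gene of that name (assembly ASM3414082v1) lies within 2 Mb of the place given by identifier order, 111 names were missing from the table, 6 pairs were left out because the table contradicted them, and 3 identifiers were not among the features. List counts use 348 pairs. The text names only pairs that passed, with MADS78 and MADS79 resting on their published identifiers.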

Additional observations from a re-analysis of the deposited data

Results flagged for a closer look

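In 172 groups of 5 libraries, 1 library was tested for standing far from the other 4, which chance does in about 1 group in 20. The share of reads in the 50 most abundant genes stood apart in CR79 at 72 HAF, at 15.1%. MADS78 stood apart in OE78 at 72 HAF, at 138 CPM. The level of SSIIa in WT at 48 HAF was 5.40 CPM, above the other 48 HAF libraries. SUS2 reached 1059 CPM in CR78 at 72 HAF, and VPE1 reached 94.6 CPM there. GluB4 stood at 8.39 CPM in CR79 at 72 HAF. PIP1-2 was lowest among the 48 HAF libraries in CR78, at 168 CPM. The cytokinin oxidase genes CKX2 and CKX5 were highest among the 72 HAF libraries in OE79, at 21.7 and 11.96 CPM. LHCB2 was highest at 48 HAF in CR79, at 960.0 CPM, and LOC_Os03g02290 was lowest there, at 67.6 CPM. RAmy3D, an alpha-amylase gene, stood at 15.7 CPM in WT at 72 HAF.

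OSH15 was called lower at 72 HAF, but in OE79 its log2 difference was 0.292 in the opposite direction. With 1 pair of libraries for each genotype this difference was not tested.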

How the results depend on the processing

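The 7114 called genes kept their direction in every alternative that tested them. The count was 7072 with RLE scaling, 7077 with upper-quartile scaling, 7035 without the low-count filter, 6733 with DESeq2 and 6255 without the pairing by genotype, of which 5859 were shared. Leaving out 1 genotype at a time gave 4345 to 5818 called genes, 2439 to 3242 higher, 1906 to 2576 lower, 2104 to 2660 at least 2-fold, 4299 to 5680 of like direction in every pair and 130 to 156 list members. CR78 gave the lowest of each, in fits with fewer libraries. Without both OE78 and CR78, 2419 genes were called (2388 shared), 1409 higher, 1010 lower, 1512 at least 2-fold, 2415 of like direction and 97 list members against 165. The slope of CR78 on the other pairs was 0.953 without the filter, against 1.16; the cause was not tested. Of 78 called named genes, 59 stayed called without any 1 genotype. Without both OE78 and CR78, 53 of the 82 tested kept their side of the threshold, 26 lost their call and 3 had too few reads to be tested. Of the 82 tested, 75 kept their side of the threshold without the pairing; the 7 that did not are given with their values in the report and among the other observations, and no other named call changed. With 4 residual degrees of freedom and 1 library for each genotype and time, no genotype has a test of its own, and low counts limit the genes near 0 at 48 HAF.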

Other observations

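Several lists not described above were read in the same fit. Among 9 tested grain size genes 4 fell, against 12.9% of all genes. SPL16 (LOC_Os08g41940), a regulator of grain width, had a log2 fold change of -0.85 (edgeR adjusted p = 0.0264), and its adjusted p was 0.0835, 0.0553 and 0.0956 without WT, OE79 or CR78. GRF4 (LOC_Os02g47280), a growth-regulating factor, had a log2 fold change of -1.02 (edgeR adjusted p = 0.0367) and stood at 13.2 and 13.1 CPM in OE79 at 48 and 72 HAF, while the other 4 genotypes were lower at 72 HAF. Its call was kept among the leave-one-out fits only without OE79, with adjusted p of 0.0511 to 0.111 in the others and 0.115 without the pairing. The number of grain size genes that fell was 1 without WT, 2 without CR78 and 2 without the pairing.

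Of 4 tested anther and tapetum genes 2 fell, against 12.9% of all genes. MSP1 (LOC_Os01g68870), a receptor kinase of anther development, went from between 71.8 and 91.2 to between 46.1 and 56.4 CPM, a log2 fold change of -0.64 (edgeR adjusted p = 0.000583, SE 0.0733). GAMYB (LOC_Os01g59660), a gibberellin-regulated transcription factor, had -0.29 (edgeR adjusted p = 0.0274), with adjusted p of 0.0616 to 0.0837 without WT, OE78, CR78 or CR79, 0.106 without the pairing and 0.0909 by DESeq2. Of 4 tested alpha-amylases 0 were called, with 2 at an unadjusted p under 0.05 and 1 called by DESeq2. RAmy3B (LOC_Os09g28420) stood at 3.83 to 5.63 and 2.57 to 6.89 CPM at the 2 times. Heat stress factors HSFA2C (LOC_Os10g28340) and HSFA2D (LOC_Os03g06630) reached 252 and 116 CPM in CR78 at 48 HAF and were not called (edgeR adjusted p = 0.413 and 0.429).

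Genes often used as references were not all level. ACT1, actin, was at 526 to 608 CPM at 48 HAF and 564 to 592 CPM at 72 HAF. GAPDH (LOC_Os02g38920), a glycolytic enzyme, rose by 1.64 on the log2 scale (edgeR adjusted p = 0.00135, SE 0.226), from between 148 and 198 to between 382 and 969 CPM. EF1A (LOC_Os03g08020), a translation factor, had a log2 fold change of 0.47 (edgeR adjusted p = 0.0215), with adjusted p of 0.0526, 0.0762 and 0.0761 without OE78, CR78 or CR79.

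By chromosome, 26.8% to 29.0% of the tested genes were called. The share of called genes that were higher at 72 HAF ran from 49.5% on chromosome 1 to 62.2% on chromosome 11. Where 2 tested genes adjacent in identifier order were both called, 58.4% of 2186 pairs moved in the same direction, against 48.6% of 1878 pairs lying 50 tested genes apart and 50.8% of 1818 pairs lying 100 apart. These shares are descriptions, and close copies that share reads were not separated.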
